A study of Mus musculus with 1 sample.

Results

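The genes described here are 32 enzymes, regulators and carriers of cholesterol and fatty acid synthesis, followed through the single cells of 1 mouse gastric organoid library. They were chosen by name, from a list of 32 symbols matched to the gene names of the deposited table, and all 32 were found among its 32285 genes. Gastric organoids are epithelial cultures grown from stomach tissue as hollow spheres in a gel. The sample was labelled wild type and untreated, and its cells were collected on day 7 after seeding and separated for 30 min at 37 °C in 0.05% trypsin-EDTA. Sequencing followed a droplet 3' protocol with unique molecular identifiers (UMIs), which count RNA molecules near the end of each transcript. Organoids named KP and EKP in the series were not analysed here, and the sources used here give no age or sex of the animals.

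Cholesterol is made from acetyl-CoA through mevalonate, isoprenoid diphosphates, squalene and lanosterol, and fatty acids are made from the same acetyl-CoA by carboxylation, chain building and desaturation. The transcription factors SREBP1 and SREBP2, encoded by Srebf1 and Srebf2, are made as membrane proteins of the endoplasmic reticulum. When sterols are scarce, the escort protein Scap carries them to the Golgi, where proteases free the part that enters the nucleus, and when sterols are plentiful the Insig proteins hold Scap back. Their target promoters carry sterol regulatory elements, often near CCAAT boxes bound by NF-Y and GC boxes bound by Sp1.

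By role, 19 of the 32 genes encode enzymes of cholesterol synthesis, 5 encode regulators of the SREBP route, 7 encode enzymes of fatty acid synthesis and desaturation, and 1 gene, Stard4, encodes a carrier that moves sterol between membranes inside the cell. No cell surface lipoprotein receptor is among the 32 genes, so sterol uptake in the strict sense is covered only by other genes given near the end. In all, 1991 barcodes with 20236916 gene UMIs were deposited. A filter of at least 500 detected genes and at most 20% mitochondrial UMIs kept 1892 cells with 20118334 gene UMIs, a median of 8512.5 per cell and a range from 890 to 47183. Epithelial markers (Epcam, Krt8, Krt18, Krt19 and Cldn7) summed to 4470 CPM, where CPM are UMIs per 1000000 gene UMIs of the same cells. All 4 fibroblast markers together summed to 0.298 CPM with 2 of them at 0, all 3 endothelial markers to 0.149 CPM with 2 at 0, and all 3 adipocyte markers to 0.447 CPM with 2 at 0. All 4 immune markers summed to 10.5 CPM, with Cd68 at 196 UMIs, Csf1r at 13 and the defining markers Ptprc and Cd3e at 1 UMI each. With 1 library there was no replicate, so no test was made, and every interval below is a 95% interval that covers counting error only. UMI counts at the 3' end are not scaled by transcript length.

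Promoter sequences are shown for 5 of the genes because the sterol route acts through short motifs next to the start site. They come from RefSeq on GRCm38.p6, run from 250 bases before to 50 after the start site, and are written 5' to 3' along the gene's strand. Capitals mark CCAAT, or ATTGG where it lies on the opposite strand, and the sterol element letters TCACNCCAC. Hmgcs1, Idi1, Msmo1 and Acat2 were among the genes most strongly shared between cells in the comparison below, and Ggps1 was a gene with a ratio near 1.
Hmgcs1, chr13:119690101-119690400, plus strand: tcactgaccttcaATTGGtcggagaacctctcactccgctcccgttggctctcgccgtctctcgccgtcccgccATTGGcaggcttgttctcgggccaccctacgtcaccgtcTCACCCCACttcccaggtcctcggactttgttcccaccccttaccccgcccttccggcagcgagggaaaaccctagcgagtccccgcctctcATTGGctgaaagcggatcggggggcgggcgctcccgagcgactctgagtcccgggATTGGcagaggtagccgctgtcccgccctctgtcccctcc
Idi1, chr13:8885356-8885655, plus strand: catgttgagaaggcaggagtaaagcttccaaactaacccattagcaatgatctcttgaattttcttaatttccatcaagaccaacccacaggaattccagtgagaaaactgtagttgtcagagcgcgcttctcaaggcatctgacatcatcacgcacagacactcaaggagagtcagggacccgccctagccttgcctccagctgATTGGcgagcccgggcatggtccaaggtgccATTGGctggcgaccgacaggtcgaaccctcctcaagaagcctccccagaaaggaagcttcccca
Msmo1, chr8:64733529-64733828, minus strand: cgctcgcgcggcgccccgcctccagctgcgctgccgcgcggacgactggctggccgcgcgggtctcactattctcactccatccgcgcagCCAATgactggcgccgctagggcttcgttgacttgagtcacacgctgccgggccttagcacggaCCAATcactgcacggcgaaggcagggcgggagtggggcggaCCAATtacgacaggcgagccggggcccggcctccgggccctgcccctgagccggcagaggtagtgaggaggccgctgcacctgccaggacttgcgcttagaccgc
Acat2, chr17:12960676-12960975, minus strand: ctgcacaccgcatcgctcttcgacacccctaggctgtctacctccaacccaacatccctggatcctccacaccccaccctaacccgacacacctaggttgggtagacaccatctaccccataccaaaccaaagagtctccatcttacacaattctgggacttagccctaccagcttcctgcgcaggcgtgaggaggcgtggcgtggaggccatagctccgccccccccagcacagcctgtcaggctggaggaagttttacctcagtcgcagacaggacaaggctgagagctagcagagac
Ggps1, chr13:14063439-14063738, minus strand: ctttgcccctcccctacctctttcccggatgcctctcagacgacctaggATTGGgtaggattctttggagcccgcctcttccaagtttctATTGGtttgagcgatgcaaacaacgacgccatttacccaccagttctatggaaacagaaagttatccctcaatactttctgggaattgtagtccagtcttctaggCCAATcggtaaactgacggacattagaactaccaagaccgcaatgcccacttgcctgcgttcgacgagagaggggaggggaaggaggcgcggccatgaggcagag

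The table matched 25 of the 32 genes, with 33 promoters, and Fdps, Fads1, Fdft1, Scd2, Stard4, Sqle and Scd1 were not matched. CCAAT on either strand occurred in 22 of the 33 promoters (66.7%), against 37.4% of all 32851 promoters of the same length and 37.9% of the promoters of the other genes with at least 100 UMIs in these cells. The Hmgcs1 window held 4 such matches, Msmo1 and Ggps1 held 3 each, Idi1 held 2 and Acat2 held 0. TCACNCCAC occurred in 1 of the 33, that of Hmgcs1, against 1.24% of all promoters, and there it did not overlap a CCAAT match. The GC box letters GGGCGG occurred in 75.8% of the 33, against 35.7% of all promoters and 66.3% of those of expressed genes. CACGTG occurred in 18.2%, against 7.15% and 10.5%. The median GC content was 62.3% for the 33, 52.7% for all promoters and 61.7% for those of expressed genes. A match is a run of letters, not a bound site.

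All 32 genes were detected, each with at least 100 UMIs in the kept cells, and together they held 26520 UMIs or 1318 CPM (1302 to 1334). The 19 cholesterol enzymes summed to 722 CPM (710 to 734), which is 54.8% of the UMIs of the 32 genes. The 7 fatty acid enzymes summed to 371 CPM (362 to 379), the 5 regulators to 199 CPM (192 to 205), and Stard4 stood at 27.3 CPM. Among the 8653 genes with at least 100 UMIs the median level was 21.4 CPM, and 20 of the 32 lay above it. The plot of levels shows a range from 251 CPM for Scd2 to 5.27 CPM for Tm7sf2.

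**Figure D1:**
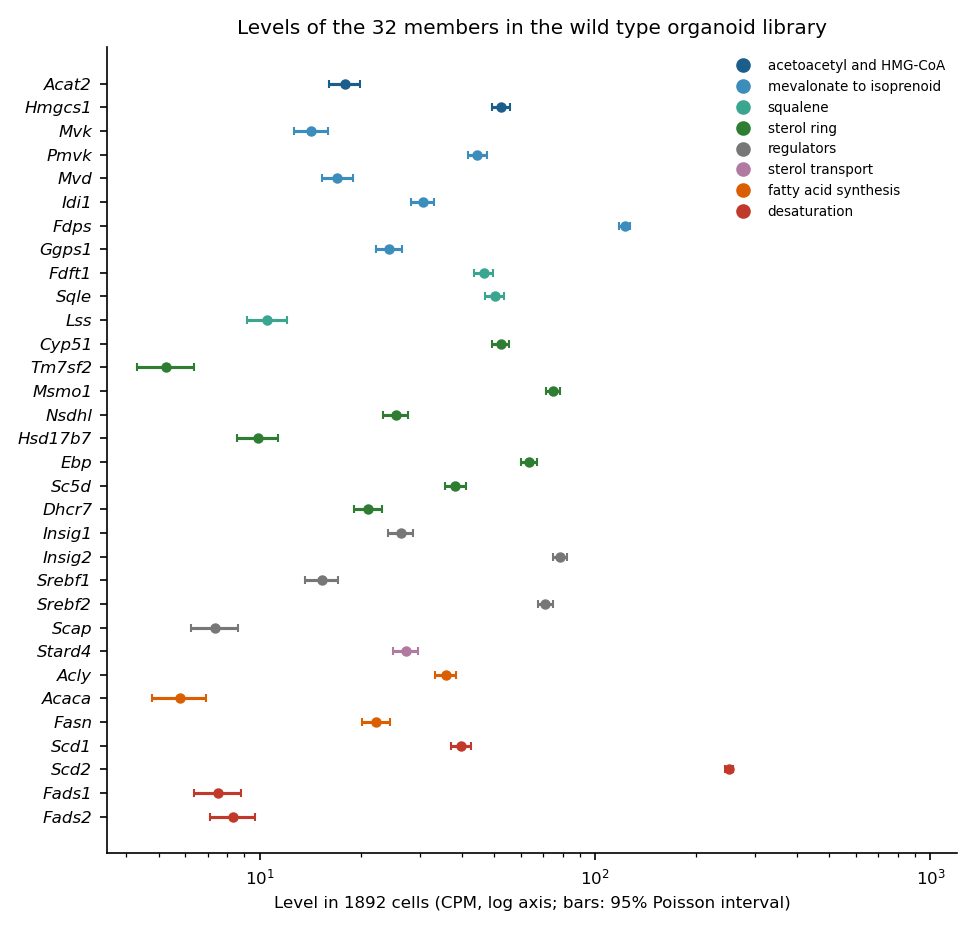
Level of each of the 32 genes (horizontal axis, CPM on a log scale) in 1892 cells, ordered along the pathway and coloured by role; bars are 95% Poisson intervals. Scd2 at 251 CPM and Fdps at 122 CPM stand to the right of the other genes, and Tm7sf2 and Acaca lie lowest.

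In the first steps, Hmgcs1, which joins acetyl-CoA to acetoacetyl-CoA to form HMG-CoA, had 52.4 CPM (49.3 to 55.7) and was detected in 34.2% of cells. Acat2, the cytosolic thiolase just before it, had 17.9 CPM and was detected in 15.4%. Along the mevalonate steps, the kinases Mvk and Pmvk had 14.3 and 44.5 CPM, the decarboxylase Mvd 17.0 CPM and the isomerase Idi1 30.6 CPM. Fdps, which builds farnesyl diphosphate at the point where sterols and prenyl groups part, had 122 CPM (118 to 127) and was detected in 58.6% of cells. Ggps1, which leads from there to the geranylgeranyl groups attached to proteins, had 24.4 CPM. Of these genes, Fdps has 7 other genomic copies of its transcript end in the reference annotation, so its count is uncertain where reads also matched a copy.

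Squalene synthase Fdft1 had 46.5 CPM, squalene epoxidase Sqle 50.2 CPM and lanosterol synthase Lss 10.5 CPM. Among the 8 enzymes that trim and reduce the sterol ring, the methyl oxidase Msmo1 had 75.0 CPM (71.2 to 78.8), the isomerase Ebp 63.6 CPM, the demethylase Cyp51 52.3 CPM and the desaturase Sc5d 38.3 CPM. Nsdhl and Hsd17b7, which work with Msmo1 in removing methyl groups, had 25.4 and 9.89 CPM. The reductases Dhcr7 and Tm7sf2 had 21.1 and 5.27 CPM (19.1 to 23.2 and 4.31 to 6.37). Consecutive steps of the ring therefore differed widely in UMIs, while neighbours in the order of levels such as Hmgcs1 and Cyp51 had overlapping intervals.

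Srebf2, the factor mainly tied to cholesterol genes, had 71.0 CPM (67.4 to 74.8), and Srebf1, mainly tied to fatty acid genes, had 15.3 CPM (13.6 to 17.1). Insig2 had 78.5 CPM (74.7 to 82.5) and Insig1, itself an SREBP target, had 26.3 CPM (24.1 to 28.7). Scap had 7.36 CPM, with detection in 7.56% of cells. On the fatty acid side, Acly, which makes cytosolic acetyl-CoA from citrate, had 35.9 CPM, the acetyl-CoA carboxylase Acaca 5.77 CPM and the fatty acid synthase Fasn 22.2 CPM. Scd2 had 251 CPM (244 to 258), was detected in 77.1% of cells (75.1 to 78.9) and held 19.1% of all UMIs of the 32 genes. Its neighbour Scd1, which encodes another stearoyl-CoA desaturase, had 39.8 CPM (37.1 to 42.6). Scd2 lies at chr19:44293674-44306864 on the plus strand and Scd1 at chr19:44394455-44407879 on the minus strand (GRCm38). The polyunsaturated fatty acid desaturases Fads1 and Fads2, also on chromosome 19, had 7.51 and 8.30 CPM.

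Scd2 and Fdps were the only ones of the 32 genes detected in 50% or more of the cells. A cell held a median of 10 UMIs of the 32 genes (0 to 136) from a median of 8 of them (0 to 27). No UMI of any of them was found in 14 cells, whose median depth was 1984 gene UMIs. No cell type of the library was known to lack these genes, so the part of free RNA in these shares was not tested. In the reference annotation 7 of the 32 genes share exonic bases with another gene. Tm7sf2 shares 532 bases with Vps51 on the same strand, so its count is uncertain. Fdft1 shares 774 bases with Ctsb on the opposite strand, including its whole transcript end, and Cyp51 shares 166 with Akap9. Ggps1, Hmgcs1, Lss and Srebf1 also share bases with a gene of the opposite strand. Use of strand in the counting is not given in the sources used here.

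The share of a cell's gene UMIs that came from the 32 genes had a median of 1184 per 1000000, with 542 at the lowest 10% of cells and 2086 at the highest 10%. The variance of the summed count over cells was 4.01 times that of Poisson counting at each cell's depth. For the cholesterol enzymes alone this ratio was 3.17, for the fatty acid enzymes 2.57 and for the regulators 1.19. A sum of independent genes would have the sum of their variances. The variance of the summed count was 2.62 times that sum for all 32 genes and 2.28 times for the cholesterol enzymes. It was 1.26 times for the fatty acid enzymes and 1.08 times for the regulators. Both ratios also grow with the mean count, so they do not rank sets of unlike level or cells of unlike depth. In 10 bands of depth the variance ratio lay between 1.78 and 3.53 in all but the deepest, where it was 7.63, and it was 1.72 after each cell was thinned to 3000 UMIs. In single thinned cells the median Pearson r was 0.0108 over 496 pairs of genes and 1835 cells that share 1 library. Hmgcs1 with Sqle had the highest r, 0.111. Counts this low hold r near 0 also where genes vary together, so r does not measure how closely pairs were related.

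**Figure D2:**
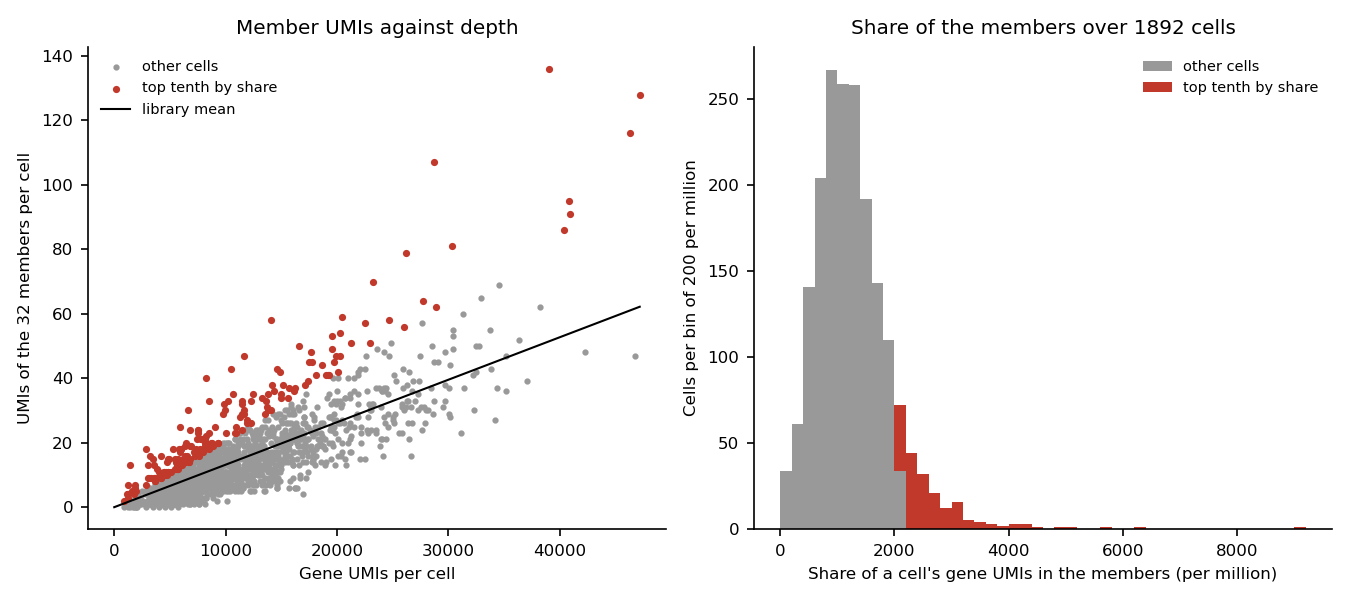
Left, UMIs of the 32 genes (vertical axis) against gene UMIs (horizontal axis) in each of 1892 cells, with the library mean as a line; right, number of cells (stacked bars) by the share of their UMIs in the 32 genes, per 1000000. Red marks the 189 cells with the highest share, which start at 2087 per 1000000 and include both shallow and deep cells.

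To see whether the genes went together from cell to cell, each gene was left out in turn, cells were ranked by the share of the other 31 genes, and the gene was compared between the 189 highest cells, 10% of all, and the rest. A ratio of at least 1.5 was called. Of the 32 genes, 23 were called higher and 0 were called lower (at most 1/1.5), while 8.7% of 8621 other genes were called higher and 3.07% lower between the 189 cells with the highest share of all 32 genes and the rest. The median ratio was 1.82 for the 32 genes and 1.08 for the other genes. For 24 of the 32 the interval lay above 1, against 18.1% of the other genes. Among genes with at least 500 UMIs, 14 of 18 of the 32 were called, against 3.42% of the others.

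**Figure D3:**
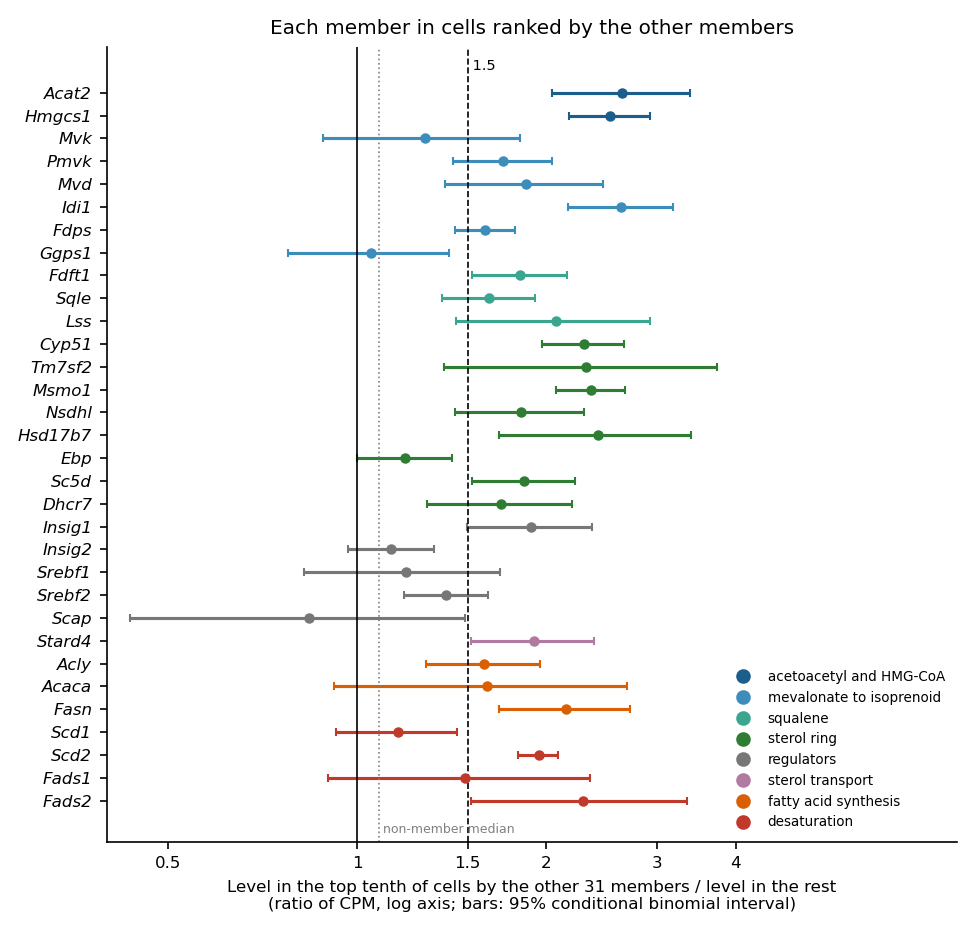
Ratio of each gene's level in the 189 cells ranked highest by the other 31 genes to its level in the remaining cells (horizontal axis, log scale), by role; bars are 95% conditional binomial intervals, the dashed line is the 1.5-fold call and the dotted line the median of 8621 other genes (1.08). Most enzymes lie right of the dashed line, and Insig2, Srebf1, Srebf2 and Scap lie left of it.

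Cholesterol enzymes were called in 16 of 19 cases. Acat2 had 40.6 CPM (32.4 to 50.4) in the cells ranked highest and 15.4 CPM (13.6 to 17.3) in the rest, a ratio of 2.64 (2.04 to 3.39). Idi1 had 69.2 against 26.3 CPM, a ratio of 2.63 (2.17 to 3.18). Hmgcs1 had 114 against 45.3 CPM, a ratio of 2.52 (2.18 to 2.92). These 3 enzymes act before squalene, at the entry to the pathway and at the isoprenoid step. All 3 squalene enzymes were called, with ratios of 1.62 for Sqle, 1.81 for Fdft1 and 2.07 for Lss. Of the 8 ring enzymes 7 were called. Msmo1 had 155 against 65.8 CPM, a ratio of 2.35 (2.07 to 2.66), and Cyp51 had 106 against 46.1 CPM, a ratio of 2.29 (1.97 to 2.66). Hsd17b7 and Tm7sf2 had ratios of 2.41 and 2.31 on fewer UMIs, with intervals of 1.68 to 3.40 and 1.38 to 3.74. The 3 cholesterol genes not called were Mvk at 1.28 (0.883 to 1.82), Ebp at 1.19 (1.0002 to 1.41) and Ggps1 at 1.05 (0.776 to 1.40). Ebp, with 63.6 CPM, is among the better counted of the 32 genes, so its interval is narrow.

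Of the 5 regulators 1 was called. Insig1 had 45.5 CPM in the cells ranked highest and 24.1 CPM in the rest, a ratio of 1.89 (1.496 to 2.36). Insig2 had 87.8 against 77.4 CPM, a ratio of 1.13 (0.966 to 1.32), so the intervals of the 2 Insig genes did not overlap. Srebf2 had a ratio of 1.39 (1.19 to 1.61), Srebf1 of 1.19 (0.823 to 1.69) and Scap of 0.840 (0.436 to 1.48), the last on 13 UMIs in the high cells. Stard4 was called, with 47.6 against 24.9 CPM and a ratio of 1.91 (1.52 to 2.38). All 3 genes of fatty acid synthesis were called, at 2.15 (1.68 to 2.72) for Fasn, 1.59 (1.29 to 1.95) for Acly and 1.61 (0.918 to 2.68) for Acaca. Scd2 had 447 against 230 CPM, a ratio of 1.94 (1.81 to 2.09), and Scd1 had 45.4 against 39.1 CPM, a ratio of 1.16 (0.927 to 1.44). The 2 neighbouring desaturase genes thus had intervals that did not overlap. Fads2 was called at 2.29 (1.52 to 3.35) and Fads1 was not, at 1.49 (0.900 to 2.35).

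The ranking was repeated with other depths, filters, cluster-wise and tag-wise rankings and shares of cells. Under each of them 16 of the 32 genes were at least 1.5 times higher. Scd2 was read in 12 of these settings and the rest of the 32 in 13. The share of genes outside the list past 1.5 in every setting is not given, so this count has no background. The count of called genes was 20 with cells ranked within each cluster, 28 with thinned cells and 22 without cluster 7, against 4.83%, 6.36% and 7.06% of other genes. The 16 genes are Acat2, Hmgcs1, Mvd, Idi1, Fdft1, Sqle, Lss, Cyp51, Msmo1, Nsdhl, Hsd17b7, Sc5d, Stard4, Fasn, Scd2 and Fads2. Across those settings Insig2 ranged from 1.03 to 1.46, Srebf2 from 1.11 to 1.4996 and Ggps1 from 0.779 to 1.37.

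The cholesterol and fatty acid branches share no gene, so each was measured in cells ranked by the other. In the 189 cells with the highest share of cholesterol enzymes, the fatty acid enzymes summed to 595 CPM (560 to 631) against 348 CPM (340 to 357) in the rest, a ratio of 1.71 (1.60 to 1.82). Without Scd2 the ratio was 1.47 (1.30 to 1.66). Of the 7 genes 3 were called higher, Fads2 at 2.65, Fasn at 2.01 and Scd2 at 1.82, and 0 lower, against 8.33% and 4.21% of other genes. Scd1 was at 1.05 (0.816 to 1.33). In the reverse ranking, the cholesterol enzymes summed to 1072 CPM in the 189 cells with the highest share of fatty acid enzymes and to 684 CPM in the rest, a ratio of 1.57 (1.496 to 1.64). Of the 19 genes 12 were called higher and 0 lower, against 5.27% and 2.56% of other genes, with Acat2 at 2.42 and Ebp at 0.982 as the extremes. The 2 sets of 189 cells had 54 cells in common, or 28.6% of each, where each set was 10% of all cells.

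Cells were clustered without use of the 32 genes. The 7 clusters had these sums: cluster 1 (485 cells) 1175 CPM, cluster 2 (400 cells) 1331 CPM, cluster 3 (310 cells) 1081 CPM, cluster 4 (308 cells) 1501 CPM, cluster 5 (232 cells) 1138 CPM, cluster 6 (94 cells) 1435 CPM and cluster 7 (63 cells) 1755 CPM (1675 to 1838). Clusters with higher sums also had deeper cells: the median depth was 5723 UMIs in cluster 3, 7308 in cluster 1 and 7384.5 in cluster 5, and between 11496 and 14281 in the other 4. The ratio of cluster 7 to the other clusters was 1.36 (1.29 to 1.42), and 1.32 (1.18 to 1.48) with each cell thinned to 3000 UMIs. Cluster 6 was proliferating-like, with Hmmr, Aurka, Knl1, Dlgap5 and Aspm as leading genes. Cluster 7 was led by Cyba, Reg3g, Gm3776, Gsta2 and Pgc and had markers of both pit and chief cells among its leading genes, so it was left unnamed.

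**Figure D4:**
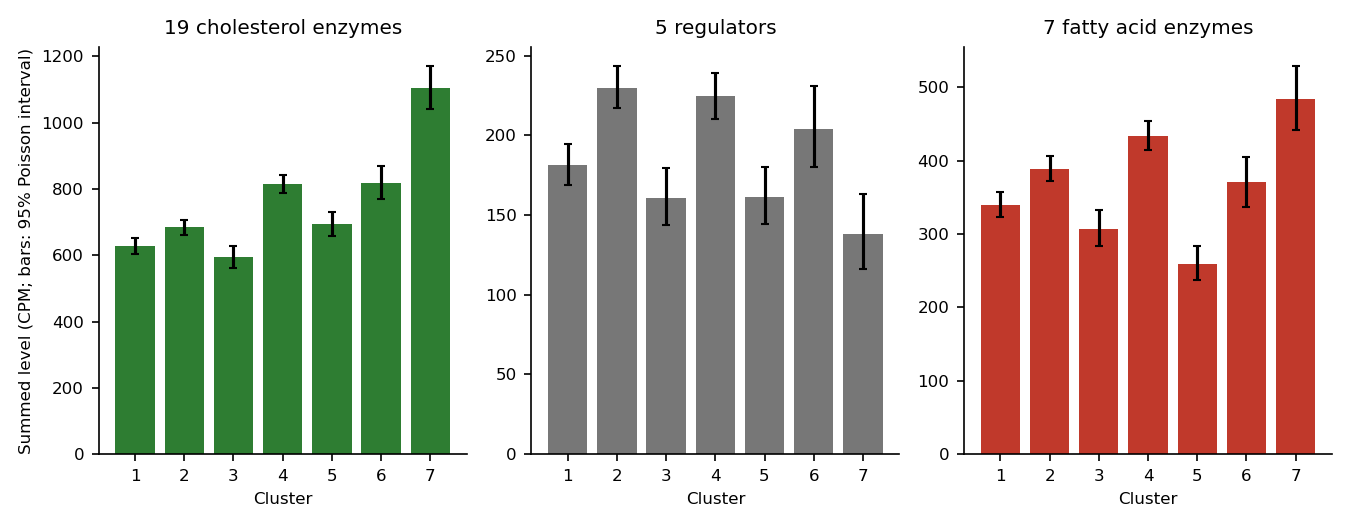
Summed level (vertical axis, CPM from 0) of the 19 cholesterol enzymes, 5 regulators and 7 fatty acid enzymes in each of 7 clusters of cells; bars are 95% Poisson intervals, and the vertical scales differ. In cluster 7 the cholesterol enzymes reach 1104 CPM and the regulators are at 138 CPM.

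In cluster 7 the cholesterol enzymes summed to 1104 CPM (1040 to 1170), 1.57 times (1.48 to 1.67) their level in the other clusters. The fatty acid enzymes were 1.33 times higher (1.21 to 1.45), while the regulators stood at 138 against 202 CPM, a ratio of 0.686 (0.575 to 0.811). Of the 32 genes 14 were called higher in cluster 7, against 20.7% of other genes, and 3 were called lower, against 17.1%. Acat2 had 60.8 CPM there and 15.7 CPM elsewhere, a ratio of 3.89. Tm7sf2 had 16.7 against 4.66 CPM, Idi1 76.5 against 28.2 CPM and Fads2 20.6 against 7.64 CPM. The 3 genes called lower were Scd1 (21.6 against 40.7 CPM), Insig2 (45.1 against 80.3 CPM) and Srebf2 (47.1 against 72.3 CPM). All 4 pit markers summed to 5135 CPM in cluster 7 and 173 CPM in the other clusters. All 7 proliferation markers summed to 903 and 215 CPM, with none of these at 0. Fetal or regenerative markers summed to 11100 and 6229 CPM and mucous neck markers to 134 and 50.9 CPM. Chief markers summed to 53.0 and 1.36 CPM, in cluster 7 all from Pgc, which had 70.4% of its UMIs in 10 cells. Fibroblast, endothelial, adipocyte and squamous markers were at 0 in cluster 7. Just 2 cells held 87.3% of the pit marker UMIs of cluster 7. Without the 10 cells of at least 10 Tff1 UMIs, chosen after seeing the data, the pit markers summed to 126 CPM in the other 56 cells of cluster 7 and to 132 CPM elsewhere. Without the same cells the cluster 7 ratio of the 32 genes was 1.30 (1.23 to 1.37), and the part of the proliferation markers was not tested.

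**Figure D5:**
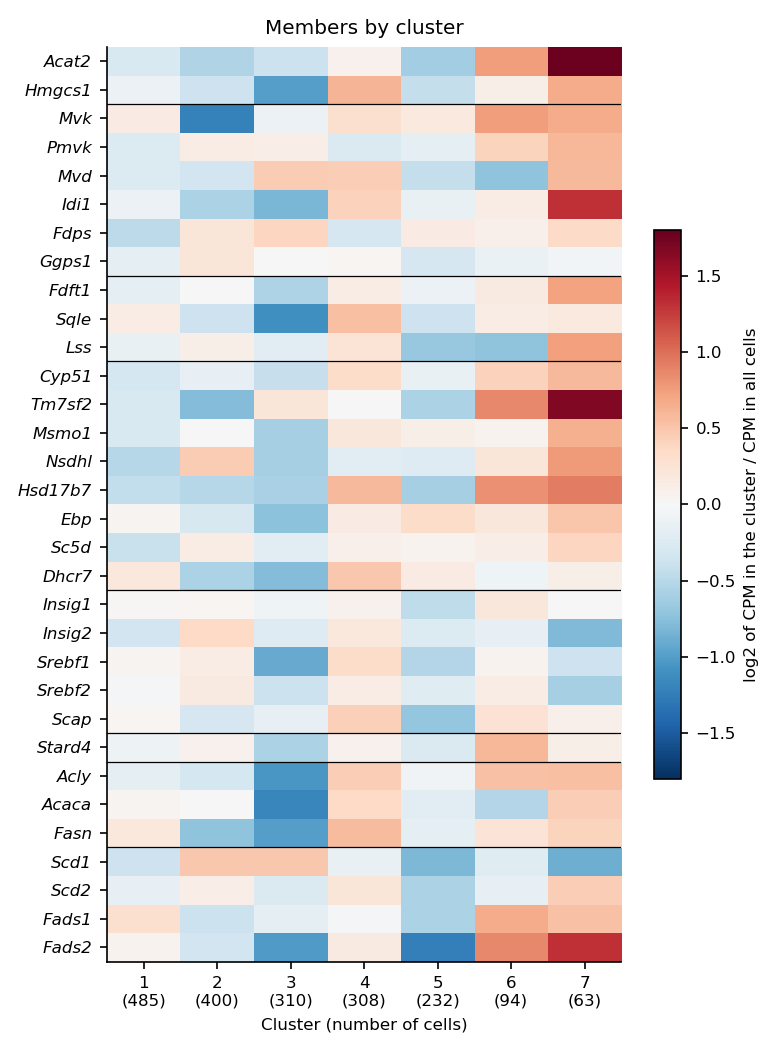
Colour gives log2 of a gene's CPM in a cluster over its CPM in all cells, for the 32 genes (rows, in pathway order with lines between roles) and 7 clusters (columns, with numbers of cells). Cluster 7 is red for Acat2, Idi1, Tm7sf2 and Fads2 and blue for Insig2, Srebf2 and Scd1; cluster 3 is blue for most genes, with Fdps, Mvd, Tm7sf2 and Scd1 among the red exceptions.

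Cluster 3 had 15 of the 32 genes called lower, against 27.4% of other genes, and cluster 5 had 9, against 23.2%. In neither of these clusters was any of the 32 called higher, against 2.09% and 2.24% of other genes. Fdps went the other way in cluster 3 and had its highest level there, at 161 CPM (143 to 179). Its level in cluster 7, 156 CPM (133 to 182), had an overlapping interval. Fdps was lowest in cluster 1, at 88.6 CPM (80.0 to 97.9). Sqle was highest in cluster 4, at 73.3 CPM (65.5 to 81.8), against 23.4 CPM (17.2 to 31.3) in cluster 3. In clusters 4 and 6, 7 genes each were called higher, against 10.5% and 10.7% of other genes, and 0 and 2 were called lower, against 2.92% and 7.68%. Insig2, Srebf2, Scd1 and Ggps1 were highest in cluster 2, although the interval of each overlapped that of another cluster. In cluster 2, 2 genes were called higher, Scd1 and Nsdhl, and 7 lower, against 6.02% and 9.86%. In cluster 1, 0 genes were called higher and 1 lower, against 2.34% and 9.38%.

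Cells were also compared by phase, called from gene scores, and by multiplexing tag. Cells called G2/M (168 cells) had 1543 CPM of the 32 genes and cells called G1 (1444 cells) had 1294 CPM, a ratio of 1.19 (1.15 to 1.24). Cells called S (280 cells) had 1263 CPM, a ratio to G1 of 0.977 (0.940 to 1.01). Median depths were 11503.5, 8606.5 and 7004 UMIs in that order. In G2/M cells the cholesterol enzymes were 1.29 times higher than in G1 (1.23 to 1.35), the fatty acid enzymes 1.13 times (1.05 to 1.21) and the regulators 0.981 times (0.887 to 1.08). Of the 32 genes 8 were called higher in G2/M and 0 lower, against 11.7% and 4.42% of other genes. S and G2/M together gave 1.08 (1.05 to 1.11), 1.03 (0.984 to 1.09) in thinned cells and 1.02 (0.993 to 1.06) without cluster 7, with 6 genes called higher and 0 lower in all cells, against 6.48% and 1.84% of other genes. By tag, cells with CMO301 (1062 cells) and CMO302 (830 cells) as the highest tag had 1334 and 1299 CPM, a ratio of 1.03 (1.002 to 1.05), and 0 of the 32 genes were called in either direction, against 0.499% and 0.592% of other genes. The labels do not say what the tags stand for.

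The 189 cells with the highest share of all 32 genes had shares from 2087 to 9040 per 1000000, with a median of 2469, and the other 1703 cells had a median of 1104. The cells next to the limit had 2087 and 2086 per 1000000. High cells held a median of 20 UMIs from 12 of the 32 genes, and the others 10 UMIs from 7. Their median depth was 8152 against 8585 UMIs, and their median mitochondrial share 4.13% against 4.06%. Of cluster 7, 27.0% (16.6 to 39.7) were high cells, of cluster 6 19.1% (11.8 to 28.6), of cluster 4 16.2% (12.3 to 20.8) and of cluster 5 4.74% (2.39 to 8.33). With cells ranked within bands of depth that hold 10% of cells each the share for cluster 7 was again 27.0%. Cells called S or G2/M made up 31.2% (24.7 to 38.3) of the high cells and 22.8% (20.9 to 24.9) of the others. Of the 57 cells under 3000 UMIs, 15 were high cells.

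Shallow cells gave the most extreme shares. The highest, 9040 per 1000000 (4814 to 15459), rested on 13 UMIs of 1438, 9 of them from Scd2. Among cells of at least 3000 UMIs the highest share was 5025 per 1000000 (2872 to 8160), from 16 of 3184 UMIs. A cell of cluster 7 with 8201 UMIs had 40 from 15 of the genes, or 4877 per 1000000 (3485 to 6642). Another cell of cluster 7 had 30 of 6596 UMIs from 18 genes, led by Hmgcs1. The cell with 107 UMIs of 28736, 41 of them from Scd2, detected 25 of the 32 genes and was also in cluster 7.

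Of the 10 genes outside the list with the highest ratios between the high cells and the rest, 4 were pit cell markers (Tff1, Muc5ac, Gkn2 and Gkn1) and 1, Tff2, was a mucous neck marker. Tff1, a secreted trefoil peptide of surface mucous cells, had 2003 CPM in the high cells and 114 CPM in the rest, a ratio of 17.6 (16.7 to 18.5). Muc5ac, the main surface mucin, had a ratio of 12.5, and Sptssb, Mucl3, Gkn2, Tff2, Gkn1, Sprr1a and Anxa10 had ratios from 4.52 to 10.7. With cells ranked within the bands of depth, the ratio was 7.73 for Tff1, 2.07 for Muc5ac, 5.95 for Sptssb, 5.72 for Gkn2 and 3.95 for Gkn1, while Tff2 stayed at 6.49 and Sprr1a at 4.72. These ratios rested on few cells. For Tff1, 2 cells with 2441 and 1198 UMIs held 59.0% of 6172 UMIs, both of them high cells, while 57.7% of the high cells and 54.3% of the others had a Tff1 UMI. Without the 10 cells with at least 10 Tff1 UMIs, of which 7 were in cluster 7, the ratio was 1.12 (0.960 to 1.31). All 4 pit markers summed to 2534 CPM in the high cells and 184 CPM in the rest with none at 0, and all 7 proliferation markers to 447 and 227 CPM. All 4 mucous neck markers summed to 126 and 47.1 CPM, a ratio of 2.68 (2.32 to 3.08), with Muc6 at 1 UMI in the library. The part of these markers in the shares was not tested. The 5 genes with the lowest ratios, Gm21762, AF067061, Gm20767, Gm21818 and BC147527, had between 99.6% and 100% of their UMIs in 10 cells each.

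A further list of 65 genes of the same metabolism was read in the same comparison of high cells and the rest. Of 51 with at least 100 UMIs, 6 were called higher and 0 lower, with a median ratio of 1.13, beside 8.7% and 3.07% of other genes. In sterol sensing and proteolysis 2 of 9 were called, Mbtps2, a protease that frees SREBP, at 1.81 and the Insig-linked ubiquitin ligase Rnf145 at 1.62, the latter with an interval of 0.966 to 2.60. In fatty acid supply and use 3 of 15 were called, the acyl-CoA synthetase Acsl5 at 1.85, the elongation enzyme Hsd17b12 at 1.56 and the lipid phosphatase Lpin2 at 1.51. Among electron donors 1 of 5 was called, Cyb5r1 at 1.59. With cells ranked within the bands of depth, 3 of these 6 genes were under 1.5, Hsd17b12 at 1.48, Lpin2 at 1.41 and Cyb5r1 at 1.26. In uptake, storage and movement of sterols 0 of 15 were called, with a median ratio of 0.939. Within the bands of depth the sterol exporter Abcg1 went from 1.17 to 1.54. Mylip, of the same group, went from 0.728 to 0.653, past the call of 1/1.5. In this group the lipoprotein receptor Vldlr had 41.9 CPM in the high cells and 38.3 CPM in the rest. The lysosomal sterol carrier Npc2 had 217 and 235 CPM, and the cholesterol esterifying enzyme Soat1 82.3 and 88.5 CPM. In the isoprenoid branches to dolichol, ubiquinone and protein prenylation 0 of 7 were called.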

How the data were processed

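Single-cell RNA was measured in 1 wild type organoid library. The deposited values are whole UMI counts per gene and barcode, not normalized by the authors. Cell Ranger 6.1.2 and GRCm38/mm10 are named in the submitters' processing notes, and no counting annotation is given in the sources used here. The 12 multiplexing tags stayed out of gene totals. CPM were computed from the deposited counts. The filter kept 1892 of 1991 barcodes. Called doublets (12, Scrublet in scanpy 1.11.5) were kept in the main values and removed in an alternative. Clustering used 2000 variable genes without the 32 genes, the further list, cell cycle, sex-linked and mitochondrial genes, 30 components, 15 neighbours and Leiden resolution 0.6. Levels carry exact Poisson intervals, shares Clopper-Pearson intervals and ratios conditional binomial intervals, all at 95%. A gene at 0 UMIs has an upper limit of 0.183 CPM over all kept cells. Named genes are the 32, the further list, markers, 5 leading genes of the clusters described, and most of the 10 highest and the 5 lowest ratios of other genes. Tfrc, Phgdh, Fabp5, Pgd and Stmn1 were chosen after their values were seen. Promoter motifs were counted on both strands, and gene coordinates and overlaps come from GENCODE M21, which matched 32158 of 32285 identifiers. Of the 4 chief cell markers 3 were matched. The 32 genes and all lists were chosen with earlier results of these data known. The steps were tested on simulated data. Alternatives were other filters, doublets removed, thinning to 3000 UMIs, means over cells, other clustering and rankings.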

Additional observations from a re-analysis of the deposited data

How the results depend on the processing

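In all, 805 values were read over 78 results. Of these, 28 values of the main comparisons and 58 of single genes and other results moved. A move was beyond the interval or, for counts, by over 1.5 times. As reversed 0 values were labelled, but levels, counts and percentages have no direction to reverse. Ratios of some single genes did cross 1 between settings, such as Ggps1 from 0.779 to 1.37 and Mvk from 0.709 to 1.87. In thinned cells the 32 genes summed to 1289 CPM, the fatty acid enzymes to 357 CPM, the ratio by tag was 1.002, that of S or G2/M to G1 1.03 and the variance over Poisson 1.72. As means over cells the sums were 1278 CPM for all, 707 for cholesterol and 352 for fatty acid enzymes. With cells that held Mki67 or Top2a taken as cycling, the phase ratio was 1.11. With 5% or 25% of cells as high, 14.8% or 3.43% of other genes were called, the fatty acid sum by cholesterol ranking was 1.84 or 1.58 and the reverse 1.74 or 1.42. Ranked within clusters these were 4.83%, 1.49 and 1.48. With a minimum of 500 UMIs, 3.42% of other genes were called. The next alternatives were chosen after seeing the data. Without cluster 7 the sums were 1295 CPM for all and 701 for cholesterol enzymes, the phase ratio 1.02, the fatty acid ratio 1.58, and 0% of high cells were in cluster 7 by construction. Without Scd2 the sums were 1067 and 119 CPM, lower by construction from fewer genes. The branch ratios without Scd2 were 1.47 and 1.34. The cause of the other moves was not tested. Genes with about 100 UMIs, such as Tm7sf2 and Acaca, are limited by depth, and a ratio under 1.5 does not show that a gene did not differ. No paired analysis was possible because there is 1 library.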

Other observations

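Some genes outside the pathway lists were higher in the cells with the highest share of the 32 genes without resting on few cells. Among 3768 genes with at least 500 UMIs and at most 10% of their UMIs in the 10 highest cells, 100 (2.65%) were at least 1.5 times higher. The following examples were chosen after their values were seen. Tfrc, the transferrin receptor that brings iron into cells, had 84.2 CPM (72.1 to 97.8) in the high cells and 33.5 CPM (30.9 to 36.3) in the rest, a ratio of 2.51. Phgdh, the first enzyme of serine synthesis, had 86.7 against 40.4 CPM, a ratio of 2.14. Fabp5, a carrier of fatty acids in the cytosol, had 1809 against 873 CPM, a ratio of 2.07. Pgd, an enzyme of the pentose phosphate pathway that yields NADPH, had 74.0 against 38.7 CPM, a ratio of 1.91. Stmn1, a tubulin-binding protein of dividing cells, had 151 against 80.5 CPM, a ratio of 1.88. All 5 were higher in cluster 7 than in the other clusters, with 75.5 against 36.8 CPM for Tfrc, 96.1 against 42.4 CPM for Phgdh, 1306 against 951 CPM for Fabp5, 119.7 against 38.2 CPM for Pgd and 404 against 70.8 CPM for Stmn1. The shares of high cells and of other cells with a UMI were 47.6% and 24.5% for Tfrc, 45.0% and 28.5% for Phgdh, 90.5% and 86.3% for Fabp5, 36.0% and 29.1% for Pgd, and 45.0% and 39.5% for Stmn1.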
